A study of Mus musculus with 7 samples.

Results

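The aminoacyl tRNA synthetase genes encode the enzymes that load each amino acid onto its tRNA. The 36 genes described here were chosen by symbol, 20 whose products charge tRNA in the cytosol and 16 whose products work in mitochondria. They were found among 24062 genes listed in the counts, and all 36 were among the 15188 genes with enough counts to test. RNA was sequenced from whole spleens of 2 to 3 month old mice. The 3 mutant spleens were enlarged and came from mice of the genotype Vav1-iCre;Brca1F22-24/F22-24, also written Brca1∆/∆. The 4 wild-type spleens came from C57BL6 mice, also written Brca1+/+. Cre is driven here by Vav1, a gene of blood cells, which leaves most stromal cells of the spleen outside its reach. Only the mutant mice are labelled as carrying the recombinase and the altered allele, and the strain is named for wild type only. The effects of genotype, recombinase, strain and spleen enlargement cannot be told apart.

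A synthetase joins an amino acid to the matching tRNA at the cost of ATP, and the charged tRNA is then carried to the ribosome by an elongation factor. Most amino acids have separate nuclear genes for the cytosolic and the mitochondrial enzyme, while Gars and Kars each serve both compartments and Eprs joins the glutamate and proline enzymes in a single chain. Several cytosolic enzymes sit together in the multisynthetase complex, held by the scaffold proteins Aimp1, Aimp2 and Eef1e1. Uncharged tRNA activates the kinase Gcn2, encoded by Eif2ak4, which raises translation of the transcription factor ATF4, and many cytosolic synthetase genes are reported ATF4 targets in mouse fibroblasts. Myc is known to raise genes of translation in growing blood cells.

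Short promoter sequences are shown because ATF4 and Myc recognise known motifs that can be read from them. RefSeq promoters (build GRCm38.p6, which is mm10) covering 250 bases before to 50 bases after the transcription start were matched by symbol to 26 of the 36 genes. No entry was matched for Cars, Hars, Hars2, Lars, Mars, Nars, Pars2, Rars, Vars or Wars. The motif TGATGNAAN, bound by ATF4 paired with a C/EBP protein, was searched on both strands, as was CACGTG, bound by Myc paired with Max. No match of the first motif shared a base with a match of the second. Windows around TGATGNAAN matches in 5 genes are printed on the gene's own strand, with the matched letters in capitals. The motif reads NTTNCATCA when it lies on the other strand.
Yars: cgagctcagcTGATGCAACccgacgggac
Gars: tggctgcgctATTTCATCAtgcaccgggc
Aars: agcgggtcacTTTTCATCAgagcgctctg
Iars: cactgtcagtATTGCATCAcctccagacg
Tars: caggagtcccGTTGCATCAgctggttagc

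The Yars window lies at chr4:129189896-129189924 (plus strand), and the Gars window at chr6:55037960-55037988 (plus strand). The Aars window lies at chr8:111033840-111033868 (plus strand). The Iars window lies at chr13:49682126-49682154 (plus strand), and the Tars window at chr15:11399656-11399684 (minus strand). Counted from the transcription start, with 1 as its first base, the matches shown began at position 4 in Yars, -31 in Gars, 9 in Aars, 7 in Iars and -16 in Tars. TGATGNAAN was thus present in 5 of the 26 matched genes, against 3.95% of 32851 RefSeq promoters and 2.36% of the 14166 promoters of tested genes. All 5 of these genes were called higher in mutant spleens, as were 22 of the 26 genes with a promoter entry. Aars, Iars and Tars also held CACGTG, shown in capitals in the next 3 windows.
Aars, Myc with Max motif: agtcaaccctgtCACGTGacactccatgtc
Iars, Myc with Max motif: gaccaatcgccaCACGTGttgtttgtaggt
Tars, Myc with Max motif: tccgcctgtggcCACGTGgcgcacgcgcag

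The CACGTG windows lie at chr8:111033684-111033713 for Aars and chr13:49682049-49682078 for Iars (plus strand), and at chr15:11399622-11399651 for Tars (minus strand). Farsb and Ears2 held the motif as well, which made 5 of 26 matched genes, against 7.15% of all promoters and 9.46% of those of tested genes. Of these 5 genes, 4 were called higher and Ears2 was not called. A letter match is a description of the sequence and says nothing of binding in these spleens.

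The libraries held 26889712 to 63612532 counts, and each synthetase gene had 180 to 19058 counts per library. All levels are CPM, the counts of a gene relative to library size, scaled with TMM factors, which correct for the composition of each library. A positive log2 fold change means a higher level in mutant spleens. Brca1, which encodes a DNA repair protein, stood at 67.6, 47.1 and 42.7 CPM in the mutant libraries, against 46.2, 72.8, 15.7 and 20.2 CPM in the wild-type libraries. The labels were not checked by this level, since exons 22 to 24 are counted together with the others. On the log2 scale the Brca1 difference was 0.44 (adjusted p = 0.490, edgeR), and 1.55 without wild-type libraries 1 and 2 (adjusted p = 0.0129, edgeR). Markers defining spleen B cells were present in wild type and largely missing in the mutant spleens, where all 12 were called lower and their summed level was 56.9 to 263 CPM, against 4815 to 6479 CPM in wild type. Of 12 markers of immature T cells 11 were called higher, with sums of 2072 to 4093 CPM in mutants and 406 to 500 CPM in wild type. The remaining marker, Cd1d1, was called lower, with a log2 fold change of -1.75. Of 16 cell division genes 12 were called higher and 0 lower (median log2 fold change 1.86), with sums of 7550 to 8603 CPM in mutants and 1095 to 4964 CPM in wild type. Wild-type libraries 1 and 2 stood apart from the other two, with pancreas acinar transcripts at 498 and 15012 CPM over the 7 tested markers, against 9.31 to 61.8 CPM in mutants and 11.4 to 17.9 CPM in wild-type libraries 3 and 4. Amy2a5, a defining acinar enzyme, was listed at 0 in every library. The same 2 wild-type libraries were highest within wild type in summed erythroid markers, at 19701 and 47905 CPM, against 3572 and 4187 CPM in the other 2. Mutant library 1 had 31729 CPM of erythroid markers, against 5863 and 7928 CPM in the other mutant libraries. Markers of other spleen cells were mostly lower in mutants. This held for 7 of 8 plasma cell markers (summed level 287 to 451 CPM in mutants and 1028 to 1846 CPM in wild type) and 9 of 10 monocyte and macrophage markers (132 to 602 CPM in mutants and 1919 to 2470 CPM in wild type). Of 8 dendritic cell markers 7 were called lower (4.85 to 44.7 CPM in mutants and 246 to 358 CPM in wild type), as were 6 of 10 markers of stroma and endothelium (421 to 747 CPM in mutants and 865 to 1286 CPM in wild type). The remaining plasma cell marker and 1 marker of stroma and endothelium were called higher. In bulk RNA, fewer cells of a type and less RNA per cell cannot be told apart. The part that these shifts in cell types played in the synthetase levels was not tested.

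Most synthetase genes were higher in mutant spleens, and none was called lower. In the edgeR fit 29 of the 36 genes were called higher and 0 lower (adjusted p under 0.05 over all genes), while 28.5% of all 15188 genes were called higher and 28.9% lower, 57.4% in either direction. The median log2 fold change was 1.04 over the 36 genes and -0.02 over all genes tested. With scaling by library size alone, 3153 genes were called higher and 5129 lower (4334 and 4390 with TMM) and the median over all genes was -0.26, and 26 of the 36 synthetase genes were called higher with a median of 0.79. Of the 36, 19 were called higher by at least 2-fold, against 17.2% of all genes. Every mutant library lay above every wild-type library for 30 of the 36 genes, against 29.2% of all genes, and below it for 0 of 36, against 32.6%. The 36 genes summed to 4733 ± 661 CPM in mutants and 2309 ± 143 CPM in wild type (SD, n = 3 and 4). Of all counts before any scaling they held 0.428% ± 0.0397 in mutants and 0.248% ± 0.0131 in wild type.

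**Figure D1:**
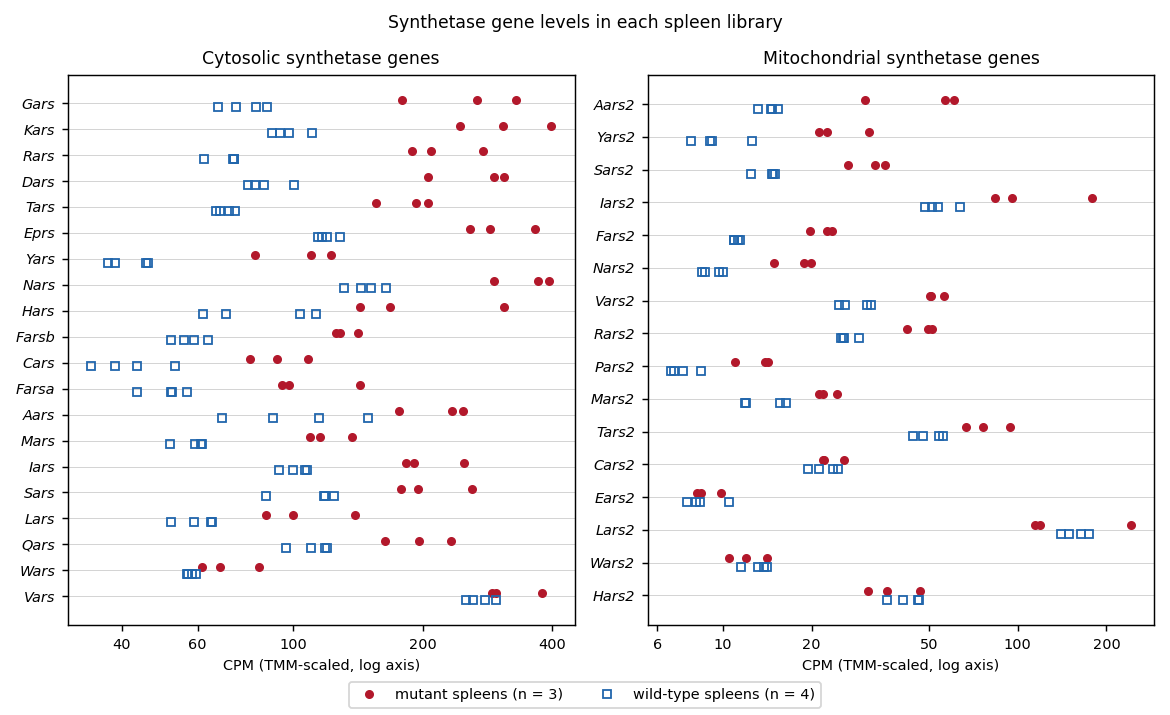
Level of each synthetase gene in every library (x axis, TMM-scaled CPM on a log axis), with the 3 mutant spleens as filled circles above the 4 wild-type spleens as open squares. The groups do not overlap for 19 of 20 cytosolic genes and 11 of 16 mitochondrial genes, and at the bottom of each panel they lie together for Vars, Cars2, Ears2, Lars2, Wars2 and Hars2.

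**Figure D2:**
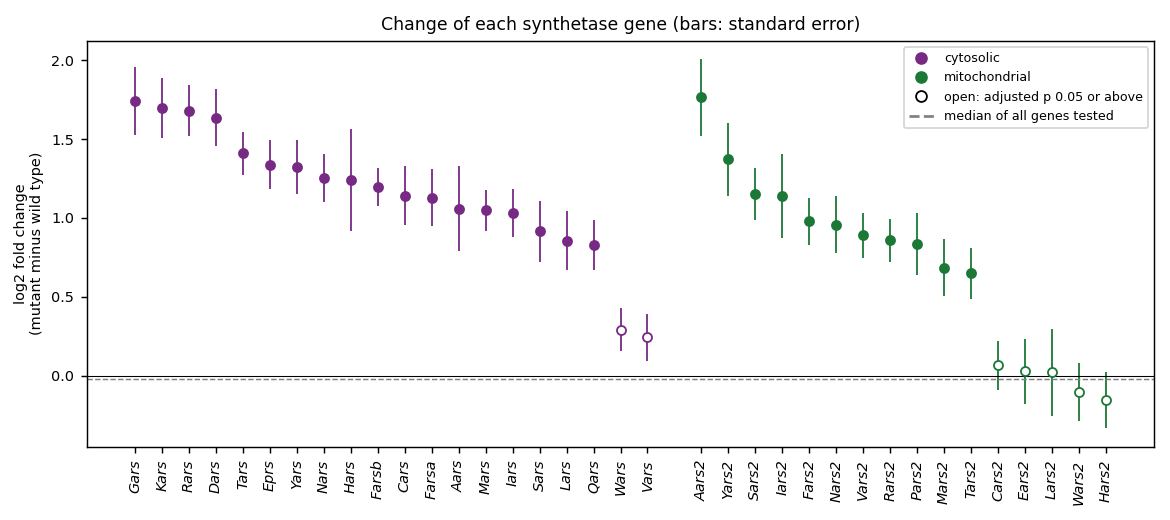
Log2 fold change (mutant minus wild type) of each synthetase gene with its standard error, cytosolic genes on the left and mitochondrial genes on the right, each in falling order. Filled points were called higher (adjusted p under 0.05, edgeR), the 7 open points were not called, and the dashed line is the median of all genes tested at -0.02.

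All 8 synthetases of the multisynthetase complex were called higher. Their median log2 fold change was 1.19, with a range of 0.83 to 1.70, and their summed level was 1559 to 2049 CPM in mutants against 677 to 749 CPM in wild type. Kars (chr8:111993439-112011354, minus strand), the lysine enzyme of cytosol and mitochondria, stood at 244, 307 and 398 CPM in mutants and at 110, 93.2, 97.6 and 89.1 CPM in wild type. The lowest mutant library thus lay well above the highest wild-type library, and Kars rose by 1.70 on the log2 scale (SE 0.19, adjusted p = 0.000405, edgeR). Rars (chr11:35808381-35834528, minus strand), the arginine enzyme, stood at 189, 209 and 276 CPM in mutants and at 72.9, 72.9, 72.5 and 62.1 CPM in wild type. The groups did not overlap, and Rars rose by 1.68 (SE 0.16, adjusted p = 0.000296, edgeR). Dars (chr1:128363707-128417416, minus strand), the aspartate enzyme, stood at 206, 309 and 293 CPM in mutants and at 85.7, 81.7, 78.4 and 100 CPM in wild type. Its groups did not overlap either, and Dars rose by 1.64 (SE 0.18, adjusted p = 0.000391, edgeR).

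The other 5 enzymes of the complex rose by less. Eprs, the joined glutamate and proline enzyme, rose by 1.34 on the log2 scale, Mars, the methionine enzyme, by 1.05, and Iars, the isoleucine enzyme, by 1.03. Lars, the leucine enzyme, rose by 0.86 and Qars, the glutamine enzyme, by 0.83. Lars stood at 139, 86.7 and 99.7 CPM in mutants and at 64.5, 58.8, 51.9 and 64.7 CPM in wild type. Mutant library 1 was its highest, which was the case for 4 of the 36 genes. The span of Mars overlaps Ddit3 on the other strand, and because the strand setting of the counting is not given, reads in the overlap cannot be told apart. Ddit3, which encodes a stress transcription factor, was not called and stood at 15.0 ± 7.58 CPM in mutants and 22.0 ± 4.64 CPM in wild type (SD, n = 3 and 4). Mars itself stood at 120 ± 14.5 CPM in mutants and 58.2 ± 4.54 CPM in wild type.

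The 3 scaffold genes of the complex rose with its enzymes. Eef1e1, which binds the methionine enzyme, stood at 66.2, 85.5 and 86.7 CPM in mutants and at 24.9, 20.2, 20.2 and 21.1 CPM in wild type, with a rise of 1.88 on the log2 scale (SE 0.15, adjusted p = 0.000189, edgeR). Aimp2, which bridges the enzymes, stood at 66.6 ± 20.2 CPM in mutants and 20.2 ± 2.67 CPM in wild type (SD, n = 3 and 4) and rose by 1.72 (SE 0.23). Aimp1, which also binds tRNA, rose by 1.23. The groups did not overlap for any of the 3 genes.

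Of the 12 cytosolic synthetases outside the complex, 10 were called higher. Their median log2 fold change was 1.17, close to that of the complex. Gars (chr6:55038001-55079504, plus strand), the glycine enzyme of both compartments, had the largest increase among all cytosolic genes. It stood at 179, 268 and 329 CPM in mutants and at 86.7, 81.8, 73.7 and 66.8 CPM in wild type. The lowest mutant value was more than 2 times the highest wild-type value, and Gars rose by 1.74 on the log2 scale (SE 0.22, adjusted p = 0.000587, edgeR). Tars, the threonine enzyme, rose by 1.41, Yars, the tyrosine enzyme, by 1.32, and Nars, the asparagine enzyme, by 1.25. Farsb and Farsa, the 2 subunits of the phenylalanine enzyme, rose by 1.20 and 1.13. Sars, the serine enzyme, rose by 0.91. Spans overlapping on the other strand were Sgpp2 with Farsb and C77080 with Yars. Both of those neighbours were called lower, at 0.302 ± 0.0662 CPM for Sgpp2 and 2.31 ± 0.637 CPM for C77080 in mutants, against 1.02 ± 0.0986 and 4.65 ± 0.837 CPM in wild type (SD, n = 3 and 4).

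Among the cytosolic genes, Aars, Hars and Cars stood highest in wild-type libraries 1 and 2 relative to the other wild-type libraries. The difference was graded, with 0.27 for Yars, 0.26 for Gars and 0.26 for Sars on the log2 scale. It was slightly negative for Dars (-0.08), Vars (-0.02) and Wars (-0.02). Aars (chr8:111033842-111055569, plus strand), the alanine enzyme, stood at 233, 176 and 248 CPM in mutants and at 115, 149, 89.5 and 68.2 CPM in wild type. The groups did not overlap, yet wild-type libraries 1 and 2 lay 0.74 above libraries 3 and 4 on the log2 scale, and Aars rose by 1.06 in mutants (SE 0.27, adjusted p = 0.0117, edgeR). Hars (chr18:36766528-36783205, minus strand), the histidine enzyme, stood at 308, 167 and 143 CPM in mutants and at 104, 113, 69.9 and 61.8 CPM in wild type. Mutant library 1 was by far its highest, its wild-type libraries 1 and 2 lay 0.72 above the other 2 on the log2 scale, and Hars rose by 1.24 in mutants (SE 0.32, adjusted p = 0.0127, edgeR). Cars, the cysteine enzyme, rose by 1.14, and its wild-type libraries 1 and 2 lay 0.41 above the other 2. These are the libraries with the highest erythroid and acinar sums in wild type, and their cell division genes summed to 3190 and 4964 CPM, against 1095 and 1382 CPM in wild-type libraries 3 and 4. Mutant library 1 had the highest erythroid sum among mutants, and Hars was highest there. On the TMM scale Aars and Cars were highest in mutant library 3, which for Aars did not hold with library size alone. What the erythroid, acinar and cell division transcripts contributed to these genes was not tested. With wild-type libraries 1 and 2 left out, 18 of the 20 cytosolic genes were called higher, and their median log2 fold change was 1.36 in place of 1.17.

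Wars and Vars were the only cytosolic genes not called by edgeR. Wars (chr12:108860030-108894174, minus strand), the tryptophan enzyme, induced by interferon gamma in human cells, stood at 83.2, 61.4 and 67.6 CPM in mutants and at 58.1, 56.8, 59.4 and 57.0 CPM in wild type. Every mutant library lay above every wild-type library, by a small margin in mutant library 2, and the difference was 0.29 on the log2 scale (SE 0.14, adjusted p = 0.0992, edgeR). DESeq2 called the gene higher (0.33, adjusted p = 0.0399), the only call among 15 alternative fits. Over these fits its log2 fold change ranged from 0.05 to 0.36, and with library size alone the groups overlapped. Of 21 interferon response genes in the same libraries, 16 were called lower and 0 higher, with sums of 362 to 885 CPM in mutants against 1722 to 2623 CPM in wild type. Their part in the Wars level was not tested. Vars (chr17:35000907-35016329, plus strand), the valine enzyme, stood at 296, 290 and 379 CPM in mutants and at 278, 261, 297 and 252 CPM in wild type. The groups overlapped, and the difference was 0.24 on the log2 scale (SE 0.15, adjusted p = 0.203, edgeR). Vars was called higher without mutant library 1 (0.38, adjusted p = 0.0497, edgeR).

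Among the mitochondrial synthetases 11 of 16 were called higher and 0 lower. Their median log2 fold change was 0.85, and 4 of them rose by at least 2-fold. Aars2 (chr17:45506841-45520843, plus strand), the mitochondrial alanine enzyme, stood at 30.3, 56.5 and 60.6 CPM in mutants and at 15.4, 13.1, 14.6 and 14.7 CPM in wild type. The groups did not overlap, mutant library 1 was the lowest mutant, and the increase of 1.77 on the log2 scale (SE 0.24, adjusted p = 0.000831, edgeR) was the largest of all 36 genes. Yars2 (chr16:16302965-16309640, plus strand), the mitochondrial tyrosine enzyme, stood at 22.5, 21.1 and 31.4 CPM in mutants and at 9.19, 7.81, 9.03 and 12.5 CPM in wild type. Wild-type library 4 was the highest of its group but lay below every mutant, and Yars2 rose by 1.37 (SE 0.23, adjusted p = 0.0019, edgeR). Sars2 (chr7:28741968-28753879, plus strand), the mitochondrial serine enzyme, stood at 26.6, 32.9 and 35.5 CPM in mutants and at 15.1, 14.7, 14.8 and 12.5 CPM in wild type. The groups did not overlap, and Sars2 rose by 1.15 (SE 0.16, adjusted p = 0.000954, edgeR).

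Iars2 (chr1:185286662-185329401, minus strand), the mitochondrial isoleucine enzyme, stood at 95.4, 84.1 and 179 CPM in mutants and at 63.8, 51.3, 48.5 and 53.8 CPM in wild type. Mutant library 3 was far above the other mutants, and Iars2 rose by 1.14 (SE 0.27, adjusted p = 0.00803, edgeR), or by 0.73 without that library. Its span overlaps Rab3gap2 on the other strand, which was not called and stood at 50.9 ± 12.4 CPM in mutants and 60.3 ± 3.60 CPM in wild type (SD, n = 3 and 4). The remaining called mitochondrial genes rose by 0.98 (Fars2, phenylalanine), 0.96 (Nars2, asparagine), 0.89 (Vars2, valine), 0.86 (Rars2, arginine), 0.84 (Pars2, proline), 0.69 (Mars2, methionine) and 0.65 (Tars2, threonine) on the log2 scale. Without wild-type libraries 1 and 2 together, 7 of the 16 mitochondrial genes were called higher in place of 11, and Mars2, Nars2, Pars2 and Tars2 were no longer called. Their log2 fold changes in that fit were 0.66, 0.86, 0.73 and 0.61, and the median of the 16 genes was 0.79 in place of 0.85.

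The other 5 mitochondrial genes were not called, with log2 fold changes between -0.16 and 0.06. Lars2 (chr9:123366940-123462664, plus strand), the mitochondrial leucine enzyme, stood at 115, 119 and 243 CPM in mutants and at 164, 140, 174 and 149 CPM in wild type. Mutant libraries 1 and 2 lay below every wild-type library and mutant library 3 lay above them all, and the log2 fold change was 0.02 (SE 0.28). Without mutant library 3 Lars2 was called lower, at -0.41 (adjusted p = 0.0472, edgeR). Hars2 (chr18:36783280-36792560, plus strand), the mitochondrial histidine enzyme, stood at 36.2, 46.5 and 31.1 CPM in mutants and at 40.9, 36.1, 45.9 and 46.2 CPM in wild type. Its groups overlapped, with a log2 fold change of -0.16 (SE 0.18). The log2 fold change was 0.06 for Cars2 (SE 0.16), 0.03 for Ears2 (SE 0.20) and -0.11 for Wars2 (SE 0.18), the cysteine, glutamate and tryptophan enzymes, and their groups overlapped.

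Cytosolic genes stood above mitochondrial genes in both groups, and the ratio of their summed levels was larger in mutant spleens. The cytosolic genes summed to 4012 ± 504 CPM in mutants and 1826 ± 139 CPM in wild type (SD, n = 3 and 4), a ratio of 2.20. The mitochondrial genes summed to 721 ± 162 CPM in mutants and 482 ± 34.6 CPM in wild type, a ratio of 1.50. The cytosolic sum was 6.23, 5.64 and 5.06 times the mitochondrial sum in the mutant libraries, and 3.80, 4.39, 3.54 and 3.47 times in the wild-type libraries. Every mutant library thus lay above every wild-type library in this ratio. Lars2 alone made up 18.8%, 18.4% and 26.8% of the mitochondrial sum in mutants and 32.1%, 31.9%, 34.2% and 31.5% in wild type. Without Lars2, an alternative chosen after its values were seen, the ratio was 7.68, 6.90 and 6.91 in mutants and 5.60, 6.45, 5.38 and 5.07 in wild type, and the groups still did not overlap. To compare levels between genes, CPM was divided by the length of each gene's exons. The median level of cytosolic genes was 61.8 CPM per kb in mutants and 28.2 CPM per kb in wild type, and that of mitochondrial genes was 12.1 CPM per kb in mutants and 5.84 CPM per kb in wild type. By these medians the cytosolic level was 5.10 times the mitochondrial level in mutants and 4.82 times in wild type, a narrower difference than that of the sums. Per kb the highest mutant levels were those of Kars at 137, Nars at 124 and Dars at 109 CPM per kb, whereas the highest wild-type levels were those of Vars at 61.6 and Nars at 52.2 CPM per kb. The lowest cytosolic levels per kb were 24.6 CPM per kb for Wars in mutants and 12.3 CPM per kb for Cars in wild type. Lars2 was the highest mitochondrial gene in both groups, at 35.2 CPM per kb in mutants and 34.7 CPM per kb in wild type.

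Genes for the same amino acid can be set side by side in 16 pairs, with Eprs paired to both Ears2 and Pars2. Per kb the cytosolic gene stood above its mitochondrial partner in 15 of 16 pairs in each group, the exception being Lars and Lars2. The log2 fold change was larger for the cytosolic gene in 11 pairs and for the mitochondrial gene in 5. The ratio of cytosolic to mitochondrial CPM was higher in every mutant library than in every wild-type library in 6 pairs, those of Cars, Hars, Nars, Rars and Tars with their partners and of Eprs with Ears2. The Nars pair did so by a small margin, with log2 ratios of 4.294 to 4.296 in mutants and 4.266 in wild-type library 2. How often other pairs of genes separate in this way was not computed. The Hars pair lay furthest apart, with a log2 fold change of 1.24 for Hars and -0.16 for Hars2. These 2 genes are neighbours on opposite strands. In the Vars pair the ratio was lower in every mutant library, with a log2 fold change of 0.24 for Vars and 0.89 for Vars2. Ratios overlapped between the groups in the other 9 pairs. No test of these differences between partners was made.

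**Figure D3:**
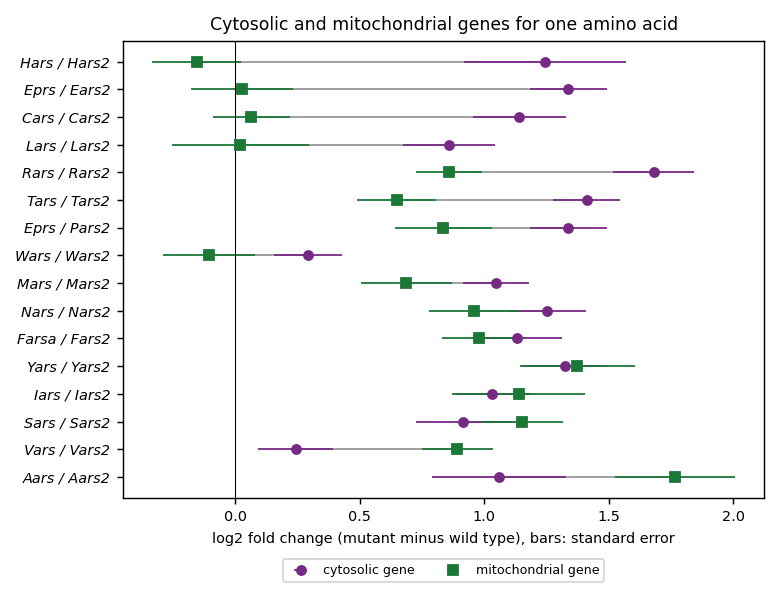
Log2 fold change (x axis, mutant minus wild type, bars are standard errors) of the cytosolic gene (circle) and the mitochondrial gene (square) for the same amino acid in 16 pairs, ordered by their difference. The cytosolic gene has the larger change in the upper 11 pairs, widest for Hars and Hars2, and the mitochondrial gene in the lower 5, widest for Aars and Aars2.

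The coefficient of variation among spleens was larger in mutants than in wild type for 29 of 36 genes. Its median was 17.3% in mutants and 9.93% in wild type (n = 3 and 4), a difference that was not tested. The share of all genes tested with a larger spread in mutants was not computed, so this may not be particular to synthetase genes. Mutant library 3 was the highest mutant library for 28 of 36 genes, and for 21 of 36 when CPM was computed from library size alone. The cytosolic sum was 3793, 3655 and 4588 CPM in mutants and 1942, 1921, 1801 and 1640 CPM in wild type. On the TMM scale wild-type library 4 was the lowest wild-type library for 15 of 20 cytosolic genes, and wild-type library 2 for 10 of 16 mitochondrial genes. Wild-type library 4 had the largest TMM factor (1.19), which lowers its CPM. Before any scaling the 36 genes held 0.2515% of counts in wild-type library 4. The lowest share in wild type was 0.2287%, in library 2. The widest spread among mutants was that of Lars2 (45.9%), Iars2 (43.4%) and Hars (43.3%). In wild type the widest spread was that of Aars (32.9%) and Hars (28.8%), and that of Wars was the smallest (2.07%).

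**Figure D4:**
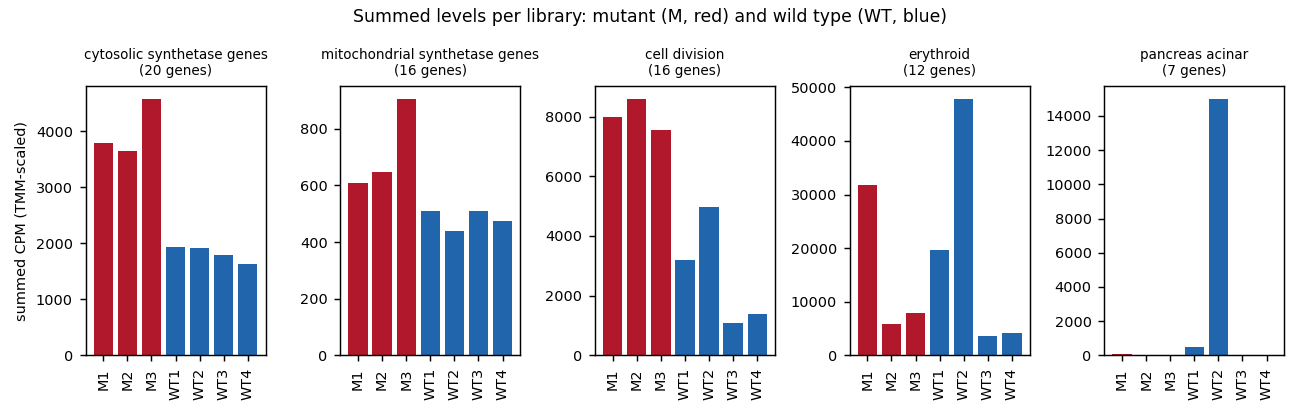
Summed TMM-scaled CPM in each library (mutant M1 to M3 on the left, wild type WT1 to WT4 on the right) for the cytosolic and the mitochondrial synthetase genes and for 3 marker lists, each panel with its own y axis from 0. Both synthetase sums are higher in all 3 mutants, cell division genes range from 7550 to 8603 CPM in mutants and from 1095 to 4964 CPM in wild type, erythroid markers are high in M1, WT1 and WT2, and acinar transcripts reach 15012 CPM in WT2.

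Cytosolic genes of both structural classes were higher. Class II enzymes, which share an antiparallel fold at the active site, were called higher in 10 of 10 cases, with a median log2 fold change of 1.25. Class I enzymes, which share a Rossmann fold, were called higher in 7 of 9 cases, with a median of 1.03, and the 2 exceptions were Vars and Wars. Of 11 cytosolic genes reported as ATF4 targets, Aars, Cars, Eprs, Gars, Iars, Mars, Nars, Sars, Tars, Wars and Yars, 10 were called higher, with a median of 1.14. Of the 9 others 8 were called higher, with a median of 1.20.

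Genes around the charging step, and those that use charged tRNA, were also higher. For comparison, 28.5% of all genes tested were called higher and 28.9% lower. Of 15 charging partners 9 were called higher and 0 lower, with a median log2 fold change of 0.91. The count called higher was 7 to 11 with any 1 library left out, and 6 without wild-type libraries 1 and 2 together. Aarsd1, which encodes an editing enzyme for mischarged alanine tRNA, rose by 1.44, Ptrh2, a peptidyl tRNA hydrolase, by 1.11, and Trnt1, which adds the CCA end of tRNA, by 1.08. Pet112 and Qrsl1, subunits of the mitochondrial enzyme that makes charged glutamine tRNA, had log2 fold changes of 0.48 and 0.21 and were not called, while Gatc, the third subunit, rose by 0.56 (adjusted p = 0.0345, edgeR). Of 10 elongation factors 9 were called higher and 0 lower, with a median of 1.05. Leaving out mutant library 2 or 3 or any 1 wild-type library gave 7 called higher. Leaving out wild-type libraries 1 and 2 together gave 6. Eif5a, which helps ribosomes past stalls, rose by 2.20, and Gfm1, a mitochondrial elongation factor, by 1.60, while Eef1a1, which carries charged tRNA to the ribosome, rose by 0.63. Of 31 initiation factors 28 were called higher and 0 lower, with a median of 1.18. Eif2s1, the alpha subunit of the initiation factor eIF2, rose by 1.65, Eif4e, which binds the mRNA cap, by 1.55, and Eif4a1, an RNA helicase, by 1.90.

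RNA polymerase III transcribes tRNA genes, and 13 of its 20 listed subunits and factors were called higher and 1 lower. Over all genes tested 28.5% were called higher and 28.9% lower. The median log2 fold change of the list was 0.69. Brf1, part of the initiation factor TFIIIB, was the gene called lower, at -0.56, and it was no longer called lower without mutant library 2 or 3 or without wild-type library 1, 2 or 3. Maf1, a repressor of the polymerase, stood at 76.6 ± 6.70 CPM in mutants and 76.3 ± 3.67 CPM in wild type (SD, n = 3 and 4). The list had 6 genes called higher and 0 lower without wild-type libraries 1 and 2.

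Genes of the integrated stress response moved in both directions, with 10 of 32 called higher and 5 lower and a median log2 fold change of 0.35. The share called higher was 31.2%, near the 28.5% of all genes. Atf4 stood at 274, 353 and 400 CPM in mutants and at 204, 261, 169 and 157 CPM in wild type, with a rise of 0.79 on the log2 scale (SE 0.22, adjusted p = 0.017, edgeR). Its groups did not overlap, although mutant library 1 lay only just above wild-type library 2. The largest increases on the list were in serine and folate enzymes. Psat1 stood at 162, 286 and 363 CPM in mutants and at 28.3, 28.6, 28.6 and 30.5 CPM in wild type, a log2 fold change of 3.22 (SE 0.26), and Phgdh rose by 2.91, Shmt2 by 2.36 and Mthfd2 by 1.76. Ddit3, Trib3 and Chac1, stress genes that ATF4 is known to induce, were not called, with log2 fold changes of -0.55 for Ddit3, 0.52 for Trib3 and -0.62 for Chac1. Trib3 and Chac1 stood at low levels, 1.00 and 0.589 CPM in mutants and 0.717 and 0.918 CPM in wild type, so their lack of a call says little. Asns, the asparagine synthetase, stood at 133, 17.3 and 65.1 CPM in mutants and at 34.2, 41.0, 10.7 and 12.2 CPM in wild type, and its groups overlapped. The 5 genes called lower were Slc7a11, the cystine transporter (-2.77), Nupr1 (-2.04), Slc7a3 (-1.54), Vldlr (-1.19) and Cebpb (-1.02). Slc7a3 was low in both groups, at 0.255 CPM in mutants and 0.758 CPM in wild type. The list had 2 genes called lower without wild-type libraries 1 and 2, and 8 without mutant library 3.

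Of the 4 kinases that phosphorylate eIF2 alpha, 2 were called lower and 0 higher. Over all genes tested 28.9% were called lower, and 4 genes are too few to set against that share. Eif2ak4, the sensor of uncharged tRNA, stood at 24.2, 20.3 and 28.5 CPM in mutants and at 34.2, 31.5, 32.7 and 37.3 CPM in wild type, which is -0.48 on the log2 scale (SE 0.16, adjusted p = 0.0343, edgeR). Eif2ak3, the sensor of endoplasmic reticulum stress, fell by 0.78 on the log2 scale. Eif2ak4 lost its call in each fit that left out a single library other than mutant library 3 (adjusted p = 0.0529 to 0.0830, edgeR) and without wild-type libraries 1 and 2 together (adjusted p = 0.140, edgeR). Eif2ak3 was called lower in all of these fits. Of 20 genes of amino acid sensing and mTORC1 control, activators and inhibitors together, 6 were called higher and 2 lower, with a median of 0.14. The share called higher was 30.0%, near the 28.5% of all genes tested, of which 28.9% were called lower. Rragd, a Rag GTPase, rose by 1.67, and Rptor, the Raptor subunit of mTORC1, by 1.04. Sesn1, a sestrin that holds back mTORC1, fell by 1.47. Without wild-type libraries 1 and 2 this list had 2 genes called higher and 1 lower, and the count of genes called lower was also 1 without mutant library 2 or without wild-type library 1, 2 or 4.

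Myc stood at 283, 455 and 470 CPM in mutants and at 86.7, 99.5, 102 and 73.7 CPM in wild type. All 3 mutant libraries lay far above wild type, and Myc rose by 2.15 on the log2 scale (SE 0.22). Max, its partner, had a log2 fold change of 0.33 and was not called, although it was called higher without mutant library 1. Mycl and Mycn fell by 4.24 and 1.98, with Mycn at 0.298 ± 0.130 CPM in mutants and 1.17 ± 0.349 CPM in wild type (SD, n = 3 and 4). What Myc or ATF4 contributed to the synthetase levels was not tested, and the lists share the shifts in cell types and cell division genes given above.

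**Figure D5:**
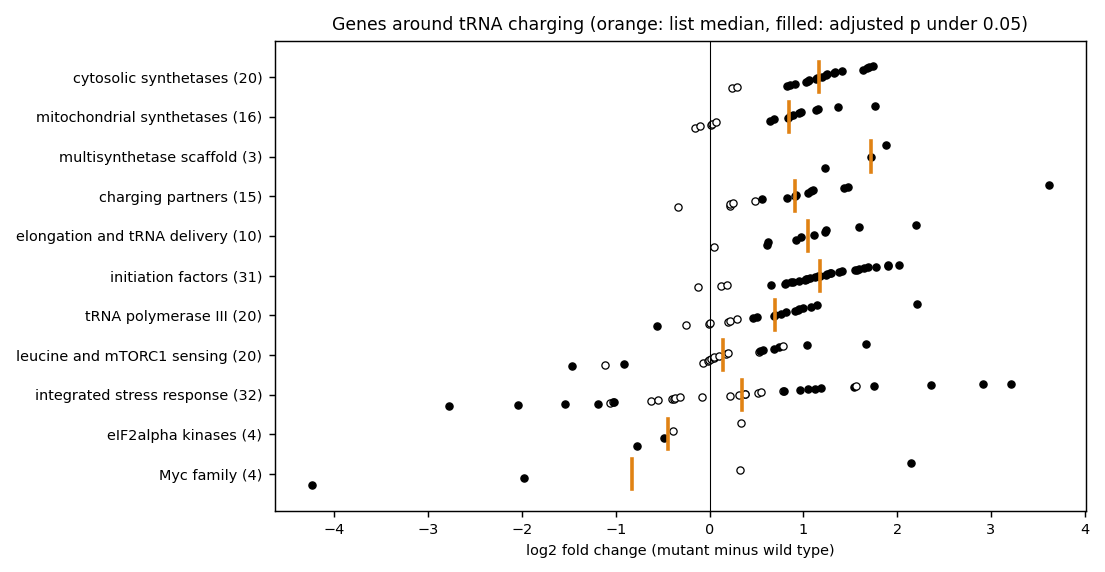
Log2 fold change (x axis, mutant minus wild type) of every tested gene in 11 lists around tRNA charging, with the number of genes in brackets, filled points called at adjusted p under 0.05 (edgeR) and open points not called. Orange bars mark the list medians, which are 1.17 for cytosolic synthetases, 0.85 for mitochondrial synthetases, 1.18 for initiation factors and 0.35 for the integrated stress response.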

How the data were processed

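The submitters' processing notes list TopHat2 2.0.12, Subread 1.4.6, featureCounts, edgeR and bcl2fastq 2.17.1.14 and the build mm10. Whether counting used strand is not given in the sources used here. Raw counts, deposited by the authors, were used for every result. A second deposited table held CPM, which was these counts times 1 constant per library (largest relative deviation 5.11e-15) and served only as a check. Per the labels each library is a separate spleen, so p-values cover only the spread among the 7 spleens.

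The members, gene lists and motifs were chosen with earlier results of these data known. The test was edgeR 4.0.16 (R 4.3.3), quasi-likelihood, with TMM factors, filterByExpr, group as the only term and Benjamini-Hochberg adjustment over all 15188 genes tested. A gene was called at an adjusted p under 0.05. Each SE is the log2 fold change over the root of its F statistic. Exon lengths were the union of GENCODE vM21 exons of protein-coding transcripts inside each gene's deposited span. All 36 genes were named with their log2 fold change. Values per library were given for Brca1, for the 4 largest increases in each compartment and for leading list genes, and for further genes chosen after their values were seen. On simulated counts with 200 of 15059 genes changed, the test recovered 66.3% of genes changed 2-fold, and 1.18% of its calls were false. The simulation gave every gene the same spread between replicates and drew changes in both directions alike. It thus differed from these data, where 57.4% of genes were called, and its rates may not hold for them. Alternatives were other scalings and filters, DESeq2 1.42.0, limma-voom 3.58.1, a replicate block, an adjusted p under 0.01, each library left out in turn, and wild-type libraries 1 and 2 left out together. No pair of replicates agreed within sampling noise. Some list genes and a promoter window are not reported here.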

Additional observations from a re-analysis of the deposited data

Results flagged for a closer look

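In 4 of 37 genes examined, a wild-type library stood away from the other 3 by more than Dixon's 95% critical value for 4 samples, a rule that chance meets in about 1 group in 20. Rars was low in wild-type library 4, at 62.1 CPM with the nearest library at 72.5 CPM. Sars was low in the same library, at 86.4 CPM with the nearest at 118 CPM, as was Sars2, at 12.5 CPM with the nearest at 14.7 CPM. Rars2 was high in wild-type library 1, at 28.9 CPM with the nearest at 25.8 CPM. In each of these genes every mutant library lay above the wild-type library in question. With library size alone wild-type library 4 was not the lowest wild-type library for Rars or Sars2, so those flags depend on the scaling. Dixon's rule was not applied on that scale. The mutant group has 3 libraries and was not examined this way.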

How the results depend on the processing

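Leaving out any 1 library ended no call of a synthetase gene: 29 or 30 of the 36 were called higher, 18 or 19 of the cytosolic and 11 of the mitochondrial genes, while the count called lower ranged from 0 to 1, with Lars2 called without mutant library 3. With library size alone the median log2 fold change was 0.79 for all 36 genes, 0.92 for cytosolic and 0.60 for mitochondrial genes, and Mars2, Pars2 and Tars2 lost their calls. Without wild-type libraries 1 and 2 the cytosolic median was 1.36 and 7 mitochondrial genes were called. At an adjusted p under 0.01, 2924 genes were called lower. Replicate numbers are shared between groups, and the labels name no pairing of the spleens. Deviations of same-numbered spleens correlated at 0.0421, -0.186 and 0.101. Differently numbered spleens ranged from -0.226 to 0.206, so these values cannot decide whether spleens were paired. With a replicate block 7 mitochondrial genes were called higher, and Aars, Iars2, Mars2, Pars2 and Tars2 lost their calls.

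Uncalled genes changed sign in places. With library size alone Vars was -0.0101, Cars2 -0.18, Ears2 -0.23 and Lars2 -0.25. With a filter of 1 CPM in 3 libraries Ears2 was -0.0108 and Lars2 -0.0184. Lars2 was -0.0663 in limma-voom and -0.0898 with the block. When wild-type libraries 1 and 2 were left out Ears2 was -0.0849 and Lars2 -0.0269. With libraries left out in turn Cars2 ranged from -0.0386 to 0.19, Ears2 from -0.0499 to 0.16, Lars2 from -0.41 to 0.29 and Wars2 from -0.22 to 0.0741. Of 540 recomputed values for single genes, 507 kept direction and side of the threshold. The causes were not tested. With library size alone the polymerase III list had 8 genes called higher, the mTORC1 list 2, and the stress response list 8 called lower.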
